A study of Mus musculus with 111 samples.

Results

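RNA-seq was performed on the tuberomammillary nucleus (TMN), the nucleus of the posterior hypothalamus where brain histamine neurons lie, in mice that carried a GFP-only virus. All 32 libraries whose labels give the virus as GFP were taken, out of 111 labelled libraries in the series; the others carried a virus for histone H3.3 or for H3.3 with glutamine 5 replaced by alanine (Q5A), 39 libraries each once a repeated Q5A pair was counted once. The mice were adults of the C57BL/6 strain, of both sexes, and the adeno-associated virus (AAV) of the GFP group was an empty vector with the same GFP reporter, infused on both sides into the TMN. Tissue lit by GFP was dissected 3 weeks later at zeitgeber time (ZT) 0, 4, 8, 12, 16 or 20, with lights on at ZT0 and off at ZT12, and each library came from 1 animal. There were 4, 5, 6, 6, 6 and 5 GFP libraries at these times. Every GFP animal thus shared the surgery, the vector and GFP expression, and no unoperated animal enters the values below. The labels give 2 cohorts of GFP animals: cohort 2 supplied 1 library at ZT8, 1 at ZT12 and 2 at ZT16, and cohort 1 all the others. The question was which transcripts follow a daily rhythm in animals with this control virus, and when they peak.

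The mammalian clock is a feedback loop in which CLOCK and BMAL1 (gene Arntl) bind E-box sequences and switch on the period (Per) and cryptochrome (Cry) genes, whose proteins then block CLOCK and BMAL1. A linked loop runs through the nuclear receptors REV-ERB (Nr1d1, Nr1d2) and ROR, and outputs run through PAR bZIP factors such as DBP and TEF. Histamine neurons of the TMN fire during waking and promote arousal, and in nocturnal mice waking falls mostly in the dark. Histamine is made by histidine decarboxylase (Hdc).

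RefSeq start-site windows are shown for the 3 clock genes called rhythmic below, whose rows had fitted peaks from ZT11.8 to ZT14.4 in GFP. The windows are from GRCm38.p6, 250 bases before to 50 bases after the start, 5′ to 3′ on the strand of the gene. Capitals mark the E-box CACGTG, which reads the same on both strands. Per1 has 2 annotated starts, at chr11:69098699-69098998 and chr11:69099902-69100201 on the + strand. The Dbp window is chr7:45704997-45705296 on the + strand, and the Nr1d2 window is chr14:18239057-18239356 on the - strand.
Per1, first window: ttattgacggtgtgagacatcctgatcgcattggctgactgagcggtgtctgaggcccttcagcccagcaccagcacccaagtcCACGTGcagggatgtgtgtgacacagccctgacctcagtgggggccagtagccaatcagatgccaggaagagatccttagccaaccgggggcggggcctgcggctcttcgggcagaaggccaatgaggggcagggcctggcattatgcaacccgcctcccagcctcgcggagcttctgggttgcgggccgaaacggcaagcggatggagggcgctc
Per1, second window: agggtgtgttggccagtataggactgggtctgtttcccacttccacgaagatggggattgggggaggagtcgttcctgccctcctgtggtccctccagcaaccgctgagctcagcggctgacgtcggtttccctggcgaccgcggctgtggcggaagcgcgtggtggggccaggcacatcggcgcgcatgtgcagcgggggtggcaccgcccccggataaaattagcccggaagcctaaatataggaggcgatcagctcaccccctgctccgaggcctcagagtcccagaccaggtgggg
Dbp: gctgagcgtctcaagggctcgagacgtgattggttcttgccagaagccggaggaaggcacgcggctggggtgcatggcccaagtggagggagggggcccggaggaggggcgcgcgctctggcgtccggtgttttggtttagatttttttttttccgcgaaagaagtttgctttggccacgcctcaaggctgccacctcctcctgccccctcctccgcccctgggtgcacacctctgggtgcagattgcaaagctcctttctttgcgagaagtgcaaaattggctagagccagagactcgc
Nr1d2: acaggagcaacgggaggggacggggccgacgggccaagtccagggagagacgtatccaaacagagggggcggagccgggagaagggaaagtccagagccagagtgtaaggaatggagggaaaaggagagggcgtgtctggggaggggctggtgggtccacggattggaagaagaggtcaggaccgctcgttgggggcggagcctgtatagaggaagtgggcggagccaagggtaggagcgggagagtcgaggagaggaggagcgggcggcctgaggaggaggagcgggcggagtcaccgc
The E-box stood once, in the first Per1 window, and was not found in the other windows at this length, which says nothing of sites outside them.

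Depth was modest. The total count in gene rows had a median of 1496408 (lowest 926778, highest 2705042), and between 3.55% and 5.63% of reads with a unique position fell in gene rows. The kit was stranded and the counting option was stranded as well, but whether that option matches the strand the kit reads was not tested. Where it does not, the count under a gene name holds reads from the opposite strand and not from the transcript of that gene, so every value below is that of a deposited row. Totals over the 6 times gave p = 0.0279 (2-sided permutation test, n = 32) and p = 0.0837 after adjustment over 3 depth measures, with the lowest median at ZT20 (1207653). Without ZT12 cohort 1 replicate 3 the adjusted permutation p was 0.0021 for totals and 0.0109 for the gene-row share, and without replicate 5 it was 0.0363 for totals. The counts are given under the gene names of the deposited tables, called rows here. Of the rows with a position in the annotation, 19.9% have an exon on the opposite strand of another gene, and these rows hold 79.9% of the annotated GFP reads. Where a named row has such an overlap, the gene on the other strand is given beside it at least once, since the reads of either cannot be assigned here. Marker rows of neighbouring regions set 2 libraries apart. At ZT12, cohort 1 replicate 3 had a summed normalised count of 545.9 over the striatum markers, against 31.6 to 83.4 in the other GFP libraries. At ZT20, cohort 1 replicate 1 had a summed normalised count of 1307 over the thalamus markers, against 87.5 to 396.7 in the others. A normalised count is the count divided by the median-of-ratios size factor of its library. Hdc, the defining histamine marker, was above 0 in 30 of 32 libraries with a median normalised count of 5.10, while Wif1 was above 0 in 10 and Slc18a2 in 32. In this bulk tissue, fewer cells of a type and less RNA per cell cannot be told apart.

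**Figure D1:**
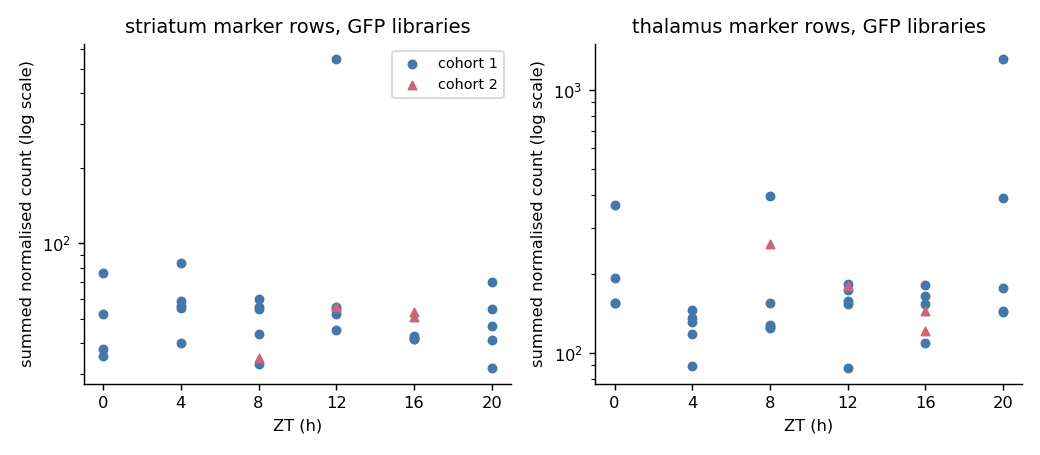
Summed normalised counts (log axis) of striatum markers (left) and thalamus markers (right) against ZT in hours, 1 point per GFP library, with circles for cohort 1 and triangles for cohort 2. A ZT12 library reaches 545.9 for striatum markers and a ZT20 library 1307 for thalamus markers, each above the others at its time.

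A 24 h cosine curve was fitted to each of 12200 rows in the 32 libraries. The fit called 696 rows rhythmic at an adjusted p under 0.05 (edgeR quasi-likelihood test), which is 5.7% of the rows tested. Of these, 309 peaked from ZT0 to ZT12 (2.53% of rows) and 387 from ZT12 to ZT24 (3.17%). Without adjustment, 3774 rows (30.9%) had a p under 0.05. The called rows had a median peak-to-trough log2 difference of 0.97 (5th to 95th percentile 0.58 to 1.79), against 0.46 over all rows tested, and a median of 33.25 reads per library, against 20. ZT as a factor with 6 levels called 1455 rows (11.9%), and JTK, a rank test of periods from 8 to 24 h, called 1752 rows (14.4%). The cosine call was shared with the factor for 553 rows, 79.5% of the cosine calls and 38% of the factor calls. It was shared with JTK for 585 rows, 84.1% of the cosine calls and 33.4% of the JTK calls. Together, 460 rows passed all 3 tests. JTK placed 834 of its calls at a period of 20 h, 508 at 24 h and 194 at 12 h. The JTK threshold corrects for templates and not for rows, and 49 rows passed once it did. Below, a row is called rhythmic by the cosine fit unless another test is named.

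The number of calls moved with single libraries. Leaving out the ZT12 cohort 1 library with high striatum markers (replicate 3) raised the cosine calls to 1582 and the factor calls to 3772. The cosine count also rose without ZT4 replicate 3 (1329) or ZT16 replicate 5 (1256) of cohort 1. It fell without ZT0 replicate 4 (261), without ZT4 replicate 1 (360) or 2 (455), and without ZT8 replicate 3 (462). It fell too without ZT12 replicate 1 (266), 2 (309) or 4 (420), and without ZT16 replicate 4 (457), all of cohort 1. The factor calls fell without ZT8 cohort 1 replicate 4 (927) or cohort 2 replicate 1 (872), and without ZT12 cohort 1 replicate 1 (476) or 2 (613) or cohort 2 replicate 1 (482). Without both libraries that stood apart, 1550 rows were called by the cosine fit and 3795 by the factor. Within cohort 1 alone the cosine fit called 280 rows and the factor 170, and with cohort as a covariate the cosine fit called 274.

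In the GFP libraries Per1, Dbp and Nr1d2, which belong to the clock loop and its output, peaked around dusk. Of 20 core clock genes, 16 passed the filter on low counts, and 3 were called, against 5.7% of all rows. Per1 and Nr1d2 peaked in the dark hours and Dbp just before lights off. A further 7 had an unadjusted p under 0.05, which makes 10 of 16 (62.5%) against 30.9% of all rows. The median peak-to-trough log2 difference of the 16 was 0.66, against 0.46 for all rows. Without both libraries that stood apart, 3 were called, against 1550 of all 12200 rows. DESeq2 called 6, the ZT factor 5 and JTK 7. Of all 12200 rows, DESeq2 called 1201, the ZT factor 11.9% and JTK 14.4%.

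Per1, a repressor of CLOCK and BMAL1 (chr11, 69095217 to 69109960), had normalised counts of 5.87, 3.77, 5.60 and 3.49 at ZT0, and of 4.68, 9.99, 10.5, 10.7 and 7.55 at ZT4. At ZT8 the lowest, median and highest values were 4.21, 7.73 and 16.1. They were 15.7, 21.1 and 25.9 at ZT12, and 7.28, 14.6 and 21.6 at ZT16. The 4 libraries at ZT0 thus lay below all 6 at ZT12. At ZT20 the values were 16.6, 6.07, 15.0, 16.4 and 7.24, which overlap those of every other time but ZT0. The fitted peak was at ZT13.6 with a log2 difference of 1.37 ± 0.30 (SE, n = 32, adjusted p = 0.00540), and the call held in each of 32 fits that left out 1 library. With H3.3 the same row peaked at ZT15.6 (unadjusted p = 0.0313, n = 39). With Q5A its fitted peak was at ZT8.89 (unadjusted p = 0.111, n = 39).

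Dbp, a PAR bZIP output factor (chr7, 45705088 to 45710203, with Sphk2 on the other strand), had normalised counts of 22.5, 26.4, 21.0 and 24.4 at ZT0, and of 20.6, 27.8, 27.0, 26.7 and 24.3 at ZT4. The lowest, median and highest values were 25.5, 30.4 and 37.5 at ZT8. They were 36.9, 41.9 and 46.9 at ZT12, and 20.6, 27.5 and 42.7 at ZT16. The ZT12 libraries lay above all libraries of ZT0 and ZT4 and overlapped those of ZT8 at its highest value. At ZT20 the values were 39.3, 18.2, 25.7, 24.05 and 22.9, the first from the library with high thalamus markers. The peak was at ZT11.8 with a log2 difference of 0.73 ± 0.18 (SE, n = 32, adjusted p = 0.0229). It was called in 32 of 32 leave-one-out fits, with the weakest adjusted p, 0.04999, without ZT12 cohort 1 replicate 1. The gene-row share as a covariate ended the call (adjusted p = 0.0524). The Dbp row had its fitted peak at ZT11.1 with H3.3 (unadjusted p = 0.0603, n = 39) and at ZT10.5 with Q5A (unadjusted p = 0.00072, n = 39).

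Nr1d2, which encodes REV-ERB beta (chr14, 18204054 to 18239127), had normalised counts of 5.87 to 8.47 at ZT0 and of 14.4 to 20.4 at ZT12, with no overlap. Its peak was at ZT14.4 with a log2 difference of 0.91 ± 0.28 (SE, n = 32, adjusted p = 0.0441). The call sat at the threshold: it held in 15 of 32 leave-one-out fits, with an adjusted p from 0.0237 without ZT4 cohort 1 replicate 2 to 0.0791 without ZT12 cohort 1 replicate 2.

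The other rows of the loop did not pass the adjusted threshold of the cosine fit, while the ZT factor called Nr1d1 and Tef, and JTK called these and Per2 and Per3. The JTK period was 24 h for Nr1d1, 20 h for Tef and Per2 and 16 h for Per3. Per2 had a log2 difference of 1.18 with a peak at ZT12.9 (adjusted p = 0.0776), Per3 of 0.87 at ZT13.9 (0.106), Tef, opposite Gm17597, of 0.60 at ZT13.2 (0.0584) and Cry1 of 0.89 at ZT14.7 (0.156). Ciart, a CLOCK and BMAL1 repressor, had its fitted peak at ZT3.49 (adjusted p = 0.105), and Rora, opposite Gm15511, at ZT19.7 (0.140). Arntl, on the other strand of Gm45355, peaks in antiphase to the Per genes in most tissues, and here had a log2 difference of 0.14 ± 0.39 (SE, n = 32, adjusted p = 0.936). Its highest ZT mean, 9.56 ± 4.24 (SD, n = 4), was at ZT0, and its lowest, 4.74 ± 2.68 (SD, n = 5), at ZT4. Per2 counts were low, with 0 reads in 2 libraries at ZT0 and in 1 at ZT20.

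Both tested rows that overlap a clock gene on the other strand, Sphk2 and Thra, had an unadjusted p under 0.05. With all libraries neither was called by the cosine fit or the ZT factor, and both were called by JTK. The Sphk2 row, opposite Dbp and Rpl18, had normalised counts of 729.96, 591, 734 and 1015 at ZT0 and of 839, 612, 557, 673 and 569 at ZT4. The lowest, median and highest values were 978, 1113 and 1457 at ZT8, and 638, 957 and 2109.8 at ZT12. At ZT20 they were 1636, 631, 567, 539 and 593. All libraries of ZT8 lay above those of ZT4, and the values of 2109.8 and 1636 came from the libraries that stood apart by their striatum and thalamus markers. The peak was at ZT10.6 with a log2 difference of 0.67 ± 0.22 (SE, n = 32, adjusted p = 0.0822). Without the ZT20 library the adjusted p was 0.0133, and without both libraries 0.0124, with a log2 difference of 0.75. With H3.3 the Sphk2 row peaked at ZT10.5 (unadjusted p = 9.92e-08, n = 39) and with Q5A at ZT10.8 (unadjusted p = 0.00876, n = 39).

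The Thra row, opposite Nr1d1, peaked at ZT8.19 with a log2 difference of 0.41 ± 0.14 (SE, n = 32, adjusted p = 0.102), and had an adjusted p of 0.0331 without the ZT20 library and of 0.0219 without both. At ZT8 its lowest, median and highest normalised counts were 519.6, 638 and 879.8. At ZT20 the values were 765, 353, 411, 389 and 389, of which only the library with high thalamus markers reached the range of ZT8. The row named Nr1d1, opposite Thra, peaked at ZT6.27 with a log2 difference of 0.46 (adjusted p = 0.0632). Its median was 3345 at ZT8 and 2113 at ZT12.

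**Figure D2:**
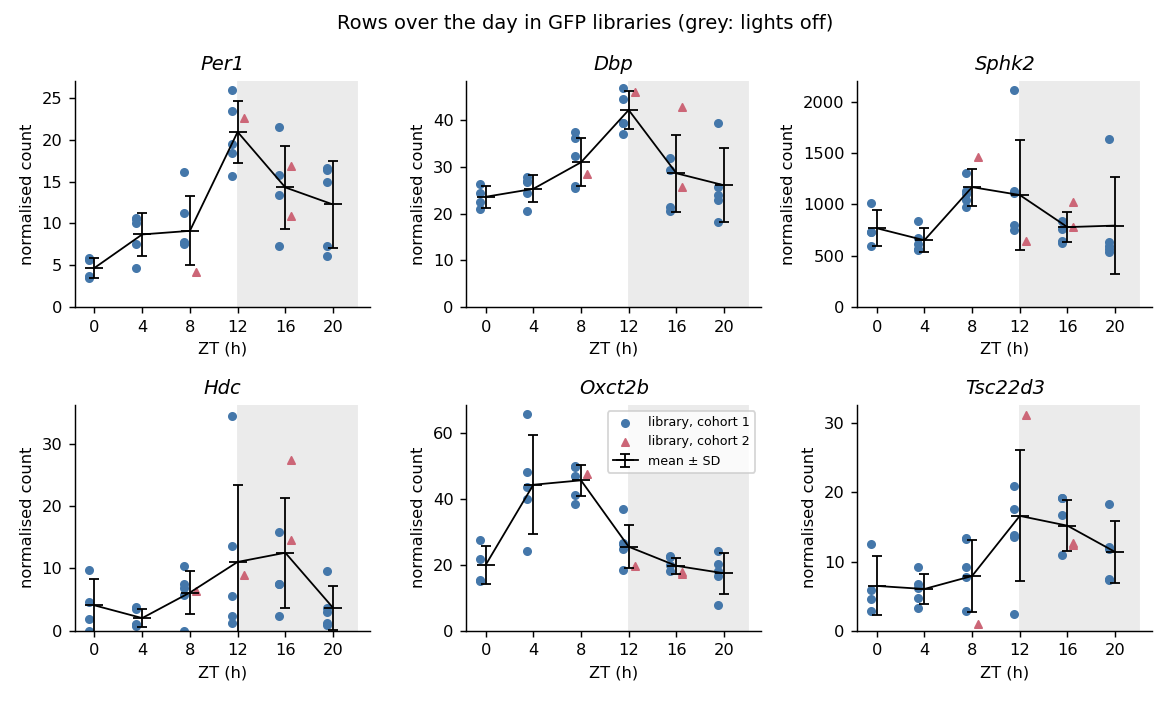
Normalised counts against ZT in hours for Per1, Dbp, Sphk2, Hdc, Oxct2b and Tsc22d3, 1 point per GFP library, with the mean and SD at each time joined by a line and the dark hours in grey. Per1 and Dbp are highest at ZT12, with means of 20.9 and 42.1, and Oxct2b at ZT4 and ZT8, with means of 44.2 and 45.6.

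A larger share of the called rows than of all rows peaked around dawn. In 4 h windows of fitted peak time centred on ZT0, 4, 8, 12, 16 and 20, the 696 called rows numbered 203, 128, 56, 156, 92 and 61. These are 29.2%, 18.4%, 8.05%, 22.4%, 13.2% and 8.76% of the called rows, beside 17.1%, 18.1%, 10.3%, 22.3%, 22.4% and 9.8% of all rows tested. With the share of reads in gene rows as a covariate, 420 rows were called, of which 22.6% fell in the ZT8 window and 24% in the ZT20 window, against 16.7% at ZT0 and 11.4% at ZT12. An unadjusted p under 0.01 was found for 661 rows with a light peak (5.42% of rows tested) and 864 with a dark peak (7.08%). Of these, 62.5% of those peaking in the light were found in the annotation, against 85.8% of those peaking in the dark and 78.6% of all rows. Of those found, 58.4% of the light rows and 30.2% of the dark rows overlap an exon on the other strand, against 41.9% of all.

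**Figure D3:**
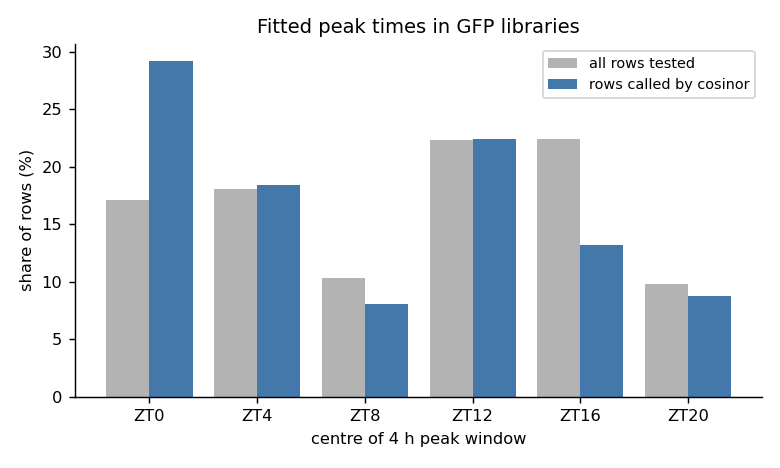
Share of rows in percent in each 4 h window of fitted peak time, for all 12200 rows tested (grey) and the 696 called rows (blue) in GFP libraries. The ZT0 window holds 29.2% of the called rows and 17.1% of all rows, and the ZT16 window 13.2% and 22.4%.

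The H3.3 and Q5A libraries, on which these rows were not chosen, gave a check of the peak times. With H3.3, 61.4% of the called rows peaked within 4 h of their GFP peak, against 44.4% of all rows tested. With Q5A the shares were 54.7% and 50.2%. By window the H3.3 share was 92.9% for the 56 rows at ZT8, 78.7% at ZT20, 69.5% at ZT4 and 66% at ZT0, but 39.1% at ZT12 and 46.7% at ZT16. With Q5A the ZT8 and ZT20 windows again had the highest shares, 82.1% and 86.9%, while the ZT0 window had 40.9%. The peaks of all rows were uneven over the windows (9.8% at ZT20 to 22.4% at ZT16), and no share over all rows was taken by window. Of 13 thalamus markers tested, 10 had an unadjusted p under 0.05 with H3.3 and a peak within 4 h. The part of the tissue taken at each time in this agreement was not tested. An unadjusted p under 0.05 with H3.3 and a peak within 4 h was found for 134 of the 696 rows (19.3%), against 8.2% of all rows. Under the alternative with both outlying libraries left out, the H3.3 share for rows with an unadjusted p under 0.01 was 47.7%, against 54.7% with all libraries.

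**Figure D4:**
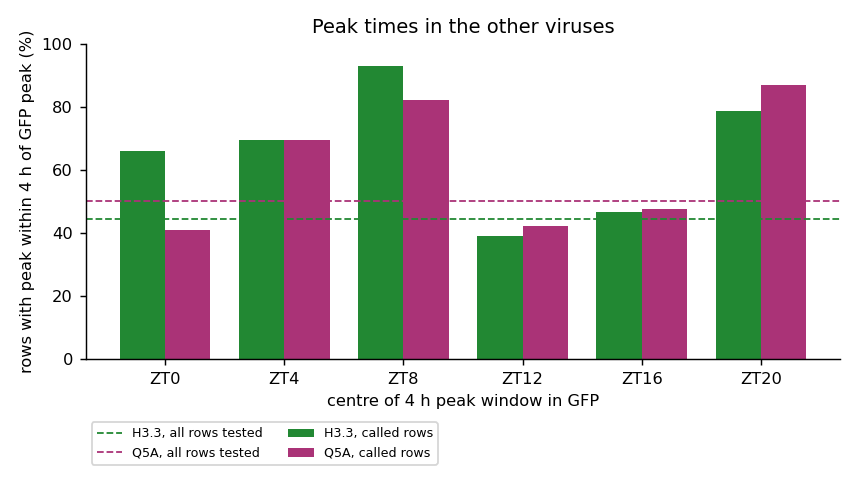
Share in percent of the rows called in GFP whose fitted peak with H3.3 (green) or Q5A (purple) lies within 4 h of the GFP peak, by 4 h window of GFP peak time, with dashed lines for all rows tested (44.4% and 50.2%). The ZT8 and ZT20 windows stand above both lines, and the ZT12 window, at 39.1% and 42.3%, below them.

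The rows shared by all 3 viruses peaked mainly in the middle of the light phase. Of the 696 called rows, 45 (6.47%) had an unadjusted p under 0.05 and a peak within 4 h in both other viruses, against 1.15% of all rows. They include 18 of the 56 rows of the ZT8 window (32.1%), 8 of 61 at ZT20 (13.1%) and 11 of 128 at ZT4 (8.59%). The ZT16 window held 5 of 92 (5.43%), ZT0 3 of 203 (1.48%) and ZT12 0 of 156. The rows of this group outside the rule for named genes were picked after their values were seen.

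Oxct2b, a ketone body enzyme gene of the testis type (chr4, 123116266 to 123118000, opposite Gm17244), had the smallest p of all rows in the cosine fit. Its normalised counts were 27.4, 21.7, 15.4 and 15.1 at ZT0 and 65.6, 40.0, 48.0, 24.02 and 43.6 at ZT4. At ZT8 they ran from 38.3 to 50.1 with a median of 47.1, and at ZT16 from 17.3 to 22.6 with a median of 19.1. The ZT8 libraries lay above every library of ZT0, ZT12, ZT16 and ZT20. The peak was at ZT6.56 with a log2 difference of 1.42 ± 0.21 (SE, n = 32, adjusted p = 0.000220), and at ZT7.54 with H3.3 and ZT6.92 with Q5A.

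Hsd17b7, an enzyme of cholesterol and sex steroid synthesis, had a log2 difference of 1.68 ± 0.31 (SE, n = 32, adjusted p = 0.000992) with a peak at ZT7.38. Gucy2e, a guanylate cyclase known from the retina, peaked at ZT6.37, ZT8.24 and ZT7.37 in GFP, H3.3 and Q5A. Its normalised counts at ZT8 ran from 59.4 to 75.0, above all libraries of ZT0 (21.0 to 38.4) and of ZT16 (21.4 to 35.2). Zfp846, a zinc finger gene, peaked at ZT7.15, ZT7.49 and ZT7.17, and its ZT8 counts of 65.7 to 96.9 lay above all libraries of the other times. Acer3, an alkaline ceramidase, had a log2 difference of 0.88 with a peak at ZT6.26, and Cers1, a ceramide synthase opposite Upf1, of 0.76 at ZT6.19. Tlr9, a receptor for unmethylated DNA, peaked at ZT6.16, ZT6.77 and ZT6.42 with log2 differences of 1.27, 1.13 and 1.16. Scarf2, a scavenger receptor family gene, peaked at ZT6.91, ZT7.98 and ZT7.27 with log2 differences of 1.22, 1.16 and 1.19. Son, a splicing cofactor opposite Donson, and Alas1, the first enzyme of haem synthesis, opposite 4930500F10Rik, peaked at ZT6.47 and ZT6.00. Sh2b3, an adaptor of cytokine signalling opposite Atxn2, had a log2 difference of 1.28 with a peak at ZT5.16.

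In the dark, Gpt2, the mitochondrial alanine transaminase, peaked at ZT16.5 in GFP and ZT16.1 in Q5A, and at ZT14.0 in H3.3. Its log2 difference in GFP was 1.01 ± 0.19 (SE, n = 32, adjusted p = 0.00361), with normalised counts of 30.6 to 49.5 at ZT16 and of 14.3 to 21.8 at ZT4, which do not overlap. Glul, glutamine synthetase, opposite Teddm2, peaked at ZT17.1 with a log2 difference of 0.77 (adjusted p = 0.0482). Usp34, a deubiquitinase opposite Ahsa2, peaked at ZT20.3 with one of 0.62.

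At dawn, Mocs1, of molybdenum cofactor synthesis, had normalised counts of 62.6, 76.2, 64.4 and 89.6 at ZT0, all above those of ZT8 (41.5 to 52.7), of ZT12 (26.7 to 41.5) and of ZT16 (23.9 to 56.7). The ZT4 and ZT20 libraries overlapped those of ZT0. Its peak was at ZT0.70 with a log2 difference of 1.12 ± 0.18 (SE, n = 32, adjusted p = 0.00121). Npas1, a bHLH-PAS repressor, peaked at ZT23.0 with a log2 difference of 1.13. With H3.3 the unadjusted p of these rows was 0.203 and 0.629 (n = 39), so their rhythm was not detected there.

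At dusk and in the early night, Fam107a, an actin-binding gene induced by stress hormones, rose from 13.1, 12.2, 24.003, 18.7 and 23.5 at ZT4 to between 35.1 and 75.2 at ZT12, with no overlap. Its peak was at ZT14.8 with a log2 difference of 1.39 ± 0.22 (SE, n = 32, adjusted p = 0.00108), and at ZT18.9 with H3.3. Hpcal4, a neuronal calcium sensor, peaked at ZT12.5 with a log2 difference of 1.46, and its ZT12 counts of 48.1 to 93.7 lay above all libraries of ZT0, ZT4 and ZT20. Slc1a3, the glutamate transporter GLAST of astrocytes, peaked at ZT11.8 with one of 1.29, and Igf1r, the IGF-1 receptor, at ZT10.1 with one of 1.05. With H3.3, Slc1a3 had its fitted peak at ZT19.9 (unadjusted p = 0.0896, n = 39) and Hpcal4 at ZT13.4 (unadjusted p = 0.738, n = 39).

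Late in the night, Kcna6, a voltage-gated potassium channel opposite Gm26673, had normalised counts of 168, 254, 141, 198 and 167 at ZT20, above all 6 libraries of ZT8 (23.1 to 87.8) and of ZT12 (42.0 to 77.6). The peak was at ZT21.6 with a log2 difference of 2.16 ± 0.40 (SE, n = 32, adjusted p = 0.00384). Library ZT0 cohort 1 replicate 4 reached 615, and without it the difference was 1.72 (adjusted p = 0.0173). Galnt5, a glycosyltransferase gene opposite Ermn, an oligodendrocyte gene, peaked at ZT21.8 with a log2 difference of 1.49.

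Of 12 histamine genes, 7 were tested and 3 called (Hdc, Maoa and Slc18a2), against 5.7% of all rows. The 3 calls had a peak from ZT12 to ZT24, and the other 4 had an unadjusted p of 0.05 or more. Without both libraries that stood apart 2 were called, against 1550 of all 12200 rows, and limma called none, against 514 of all rows. Hdc had normalised counts of 9.78, 1.88, 0 and 4.65 at ZT0, and of 0.937, 1.11, 3.75, 3.56 and 0.838 at ZT4. The lowest, median and highest values were 0, 6.57 and 10.4 at ZT8, 1.23, 7.25 and 34.5 at ZT12, and 2.39, 11.04 and 27.5 at ZT16. At ZT20 they were 3.02, 1.21, 9.64, 0.962 and 3.62. The ranges overlapped at every time, and the values of 34.5 and 27.5 came from single libraries. The peak was at ZT13.8 with a log2 difference of 1.81 ± 0.62 (SE, n = 32, adjusted p = 0.0341), called in 25 of 32 leave-one-out fits. Without the ZT12 library of 34.5 (cohort 1 replicate 4) the difference was 1.47 (adjusted p = 0.0752), and within cohort 1 it was 1.54 (adjusted p = 0.107). With H3.3, Hdc peaked at ZT11.8 (unadjusted p = 0.00403, n = 39), and with Q5A its fitted peak was at ZT3.14 (unadjusted p = 0.0502, n = 39).

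Maoa, monoamine oxidase A, had normalised counts from 6.41 to 17.6 at ZT12, above every library of ZT0, ZT4 and ZT8 (0 to 5.03). It peaked at ZT14.0 with a log2 difference of 1.48 ± 0.54 (SE, n = 32, adjusted p = 0.0329), and was called in 27 of 32 leave-one-out fits, with an adjusted p of up to 0.0632 without ZT12 cohort 1 replicate 2. With H3.3 its rhythm was not detected (unadjusted p = 0.315, n = 39). Slc18a2, the vesicular monoamine transporter, opposite Gm29261, peaked at ZT20.0 with a log2 difference of 0.98 ± 0.27 (SE, n = 32, adjusted p = 0.0482). The ZT20 values were 326, 149, 110, 102 and 79.7, the highest from the library with high thalamus markers. Without that library the adjusted p was 0.144 and the difference 0.63.

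Of 20 genes of H3 monoaminylation and H3K4 methylation, 17 were tested and none was called, with 1 at an unadjusted p under 0.05 (edgeR; 5.88% against 30.9% of all rows). The ZT factor, DESeq2 and limma called none, and JTK called 2, Kmt2a, opposite AC061963.1, and Setd1a, opposite 9430064I24Rik, which both encode H3K4 methyltransferases. JTK called 14.4% of all rows, and the period it gave Kmt2a was 12 h. The row of this list with the smallest p was Rbbp5, a subunit shared by H3K4 methyltransferase complexes, with a log2 difference of 0.84 ± 0.44 (SE, n = 32, adjusted p = 0.159). Tgm2, which encodes the transglutaminase TG2 and lies opposite Gm20412 and Rprd1b, had one of 0.50 ± 0.49 (SE, n = 32, adjusted p = 0.526). Wdr5 did not pass the filter on low counts. Of 22 immediate early genes, only 10 passed the filter on low counts. Of these 10 rows, 0 had an unadjusted p under 0.05 and none was called by either edgeR fit, JTK, DESeq2 or limma.

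Of 14 tested genes induced by glucocorticoids, adrenal hormones that rise before the active phase, 3 were called, against 5.7% of all rows. The 3 peaked in the early night. The unadjusted p was under 0.05 for 7 (50%), each with a dark peak, against 17.8% of all rows for dark peaks. Tsc22d3, the glucocorticoid-induced leucine zipper, had normalised counts of 5.87, 2.82, 12.6 and 4.65 at ZT0, and of 4.68, 3.33, 6.75, 6.23 and 9.22 at ZT4. At ZT16 the lowest, median and highest values were 10.9, 14.7 and 19.3, above every ZT4 library. At ZT12 they were 2.46, 15.7 and 31.2, the lowest from the library with high striatum markers. The peak was at ZT14.6 with a log2 difference of 1.42 ± 0.37 (SE, n = 32, adjusted p = 0.0173), at ZT17.2 with H3.3 and at ZT13.2 with Q5A. The gene-row share as a covariate gave an adjusted p of 0.0535. Klf15, a metabolic transcription factor, peaked at ZT14.7 with a log2 difference of 0.92 (adjusted p = 0.0432), and Sgk1, a glucocorticoid-induced kinase, at ZT14.3 with one of 1.42 (adjusted p = 0.0478). They were called in 16 and 11 of 32 leave-one-out fits. Without both libraries that stood apart, 4 of the 14 rows were called, against 1550 of all 12200 rows. The adjusted p went up to 0.0768 for Klf15 without ZT4 cohort 1 replicate 1 and 0.0890 for Sgk1 without ZT12 cohort 2 replicate 1. With Q5A, Sgk1 peaked at ZT13.9 (unadjusted p = 2.96e-06, n = 39), while the unadjusted p of Klf15 was 0.0846 (n = 39). With H3.3 the rhythm of Sgk1 and Klf15 was not detected (unadjusted p = 0.129 and 0.119, n = 39).

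Heat shock and cold-inducible rows had 12 of 18 (66.7%) at an unadjusted p under 0.05, against 30.9% of all rows. A dark peak was found for 11 of them, against 17.8% of all rows for dark peaks at that p. Against 5.7% of all rows called, there was 1 call. This was Chordc1, an HSP90 co-chaperone, with a peak at ZT17.2 and a log2 difference of 0.93 ± 0.28 (SE, n = 32, adjusted p = 0.0441), called in 14 of 32 leave-one-out fits. Its adjusted p was 0.0752 without ZT4 cohort 1 replicate 1. Hsp90ab1, a cytosolic HSP90, peaked at ZT16.0 with a log2 difference of 0.52 (adjusted p = 0.0505). With H3.3, Chordc1 and Hsp90ab1 peaked at ZT20.2 and ZT20.6. Without both libraries that stood apart, 6 of the 18 rows were called, against 1550 of all 12200 rows.

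Cytosolic ribosomal protein rows had 26 of 46 (56.5%) at an unadjusted p under 0.05, with 20 in the dark, and 4 calls, all in the dark. Over all rows tested, 30.9% had an unadjusted p under 0.05, 17.8% with a dark peak, and 5.7% were called. Ribosomal protein genes have many near-identical copies in the genome, so their counts are uncertain. Rpl7l1, an L7-like gene, peaked at ZT12.8 with a log2 difference of 1.21, Rpl21 at ZT13.2 with one of 1.00 and Rps21 at ZT12.9 with one of 1.05. Without ZT12 cohort 2 replicate 1, the library with the largest total, the adjusted p of Rpl21 went from 0.0362 to 0.0865 and that of Rps21 from 0.0413 to 0.102. Nuclear genes of oxidative phosphorylation had 33 of 69 (47.8%) at an unadjusted p under 0.05, 30 of them with a dark peak, and 3 calls. Of 14 tested rows that overlap these genes on the other strand, 7 had an unadjusted p under 0.05, 5 of them with a light peak. The 2 called among them peaked in the light. Of 14 such rows for the ribosomal list, 2 had an unadjusted p under 0.05 and none was called. The median log2 difference was 0.57 for the ribosomal and 0.58 for the oxidative phosphorylation rows. Without both libraries that stood apart, 14 of 46 ribosomal and 10 of 69 oxidative phosphorylation rows were called, against 1550 of all 12200 rows. Ndufa7, of complex I, peaked at ZT15.5 with a log2 difference of 1.09, and Uqcrc2, of complex III and opposite Pdzd9, at ZT13.9 with one of 0.96. Uqcrc2 had an adjusted p of 0.0758 without ZT12 cohort 2 replicate 1. With H3.3 the unadjusted p was 0.137 for Rpl7l1, 0.112 for Ndufa7 and 0.381 for Uqcrc2 (n = 39). The ribosomal list had 6 rows and the oxidative phosphorylation list 5 with an unadjusted p under 0.05 with H3.3 and a peak within 4 h.

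Of 28 potassium channel rows, 3 were called and 10 (35.7%) had an unadjusted p under 0.05, all with a dark peak, against 5.7% of all rows called, 30.9% at an unadjusted p under 0.05 and 17.8% of all rows for dark peaks. The calls include Kcna6 and Kcnj10, the inward rectifier of glia, which peaked at ZT18.1. Of 33 GABA and glutamate receptor rows none was called by the cosine fit in edgeR, with 13 (39.4%) at an unadjusted p under 0.05. DESeq2 called 1 of them, limma none, the ZT factor 6 and JTK 4. Of all 12200 rows, DESeq2 called 1201, limma 514, the ZT factor 11.9% and JTK 14.4%. Of 32 rows of CREB and neurotrophin signalling, 3 were called and 9 (28.1%) had an unadjusted p under 0.05, against 5.7% and 30.9% of all rows. The called rows were Map2k1, which encodes the kinase MEK1, with a peak at ZT11.4 (log2 difference 0.79), Ntrk2, the BDNF receptor, at ZT12.8 (0.76), and Adcy1, an adenylate cyclase. Of 21 transmitter and neuropeptide rows, Oxt and Slc17a7 were called and 6 (28.6%) had an unadjusted p under 0.05, against 30.9% of all rows. Oxt, the oxytocin gene, ran from 0 to 125 at ZT4 and was at 0 in 4 of 5 libraries at ZT20, and was called in 11 of 32 leave-one-out fits. Against 5.7% of all rows, 3 of 15 genes that modify or degrade clock proteins were called. They were Ddb1 (ZT14.8), opposite Tkfc, Sik3 (ZT15.9), and Usp2 (ZT23.8), opposite Gm39325 and Gm49380. None of the 37 mitochondrially encoded rows passed the filter.

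Several of these calls sat near the threshold. Leaving out 1 library, Kcnj10 was called in 19 of 32 fits, Map2k1 in 27, Ntrk2 in 9, Ddb1 in 30, Sik3 in 17 and Usp2 in 8. The adjusted p reached 0.0650 for Kcnj10 without ZT4 cohort 1 replicate 1, and 0.0697 for Map2k1 without ZT0 cohort 1 replicate 4. Without ZT12 cohort 1 replicate 1 it reached 0.101 for Ntrk2, 0.0509 for Ddb1, 0.0651 for Sik3, 0.0976 for Usp2 and 0.0826 for Oxt.

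**Figure D5:**
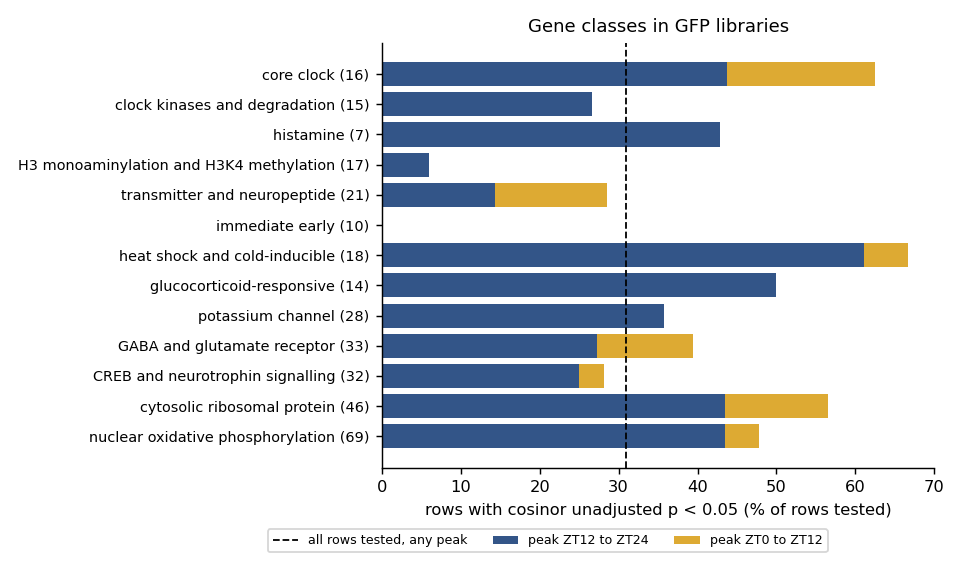
Share of tested rows in percent with an unadjusted cosine p under 0.05 in each gene list, split by a peak in the dark (blue) or light (yellow) hours, with the number tested in brackets and a dashed line at 30.9%, the share over all rows. Heat shock (66.7%), core clock (62.5%) and ribosomal protein rows (56.5%) have the highest shares.

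Some cell type markers were called. Over all rows tested, 30.9% had an unadjusted p under 0.05, 17.8% with a dark peak, and 5.7% were called. Of 8 neuron markers, 6 had an unadjusted p under 0.05 and 2 were called, all with a dark peak. Their summed normalised count had a median of 977 at ZT8 (754 to 1049) and of 1529 at ZT12 (1151 to 2067), with no overlap. Of 10 oligodendrocyte markers 3 were called, of 8 astrocyte markers 1 and of 4 striatum markers 1, against 5.7% of all rows. Neither the cosine fit in edgeR, DESeq2 nor limma called any of 7 microglia, 2 endothelial, 2 ependyma, 2 pituitary, 7 immune or 5 neighbouring hypothalamus markers, of which 2, 1, 1, 1, 0 and 1 had an unadjusted p under 0.05. Of these markers the ZT factor (11.9% of all rows called) called Foxj1 and Tshb, and JTK (14.4% of all rows called) called Tmem119 and Tshb. Their part in the dark peaks of the ribosomal, oxidative phosphorylation and channel rows was not tested.

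Of 13 thalamus markers tested, a list added after the values were seen, 6 were called, against 5.7% of all rows. Prkcd, Slc17a7, Adcy1, Synpo2 and Ntng1 peaked between ZT20.6 and ZT22.2, and Calb2 at ZT12.5. Prkcd, a kinase gene strong in thalamic relay neurons, had normalised counts of 7.83, 4.71, 46.2 and 11.6 at ZT0, at most 9.48 at ZT4 to ZT16, and 210.0, 9.71, 12.9, 49.1 and 1.21 at ZT20. The high values thus came from replicates 1 and 4 at ZT20 and replicate 3 at ZT0, all of cohort 1. The log2 difference was 3.21 ± 0.85 (SE, n = 32, adjusted p = 0.00599), and 1.85 without ZT20 cohort 1 replicate 1 (adjusted p = 0.0515). Without that library Slc17a7, the vesicular glutamate transporter VGLUT1, had an adjusted p of 0.0506, Adcy1 of 0.0638, Synpo2 of 0.113 and Ntng1 of 0.187, and none of these was called. Ntng1 and Calb2 were called in 15 and 8 of 32 leave-one-out fits, the latter with an adjusted p of 0.103 without ZT12 cohort 2 replicate 1. Prkcd and Adcy1 also peaked near this time with H3.3 (ZT19.8, unadjusted p = 5.11e-07, and ZT20.9, unadjusted p = 8.52e-06, n = 39) and with Q5A (ZT22.1 and ZT18.1). Of the posterior hypothalamus markers, 1 of 9 was called, and their summed normalised count was 18.1 in the ZT20 library with high thalamus markers, 22.2 in the ZT12 library with high striatum markers and 39.6 to 198.8 in the others.

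The GFP and H3.3 libraries were also fitted together to test whether the daily curve differed between the viruses. Of 13264 rows, 2 had an interaction at an adjusted p under 0.05 (0.0151%), and 1769 (13.3%) at an unadjusted p under 0.05. They were Fat1, an atypical cadherin opposite Gm2366, and Mob4, a subunit of STRIPAK phosphatase complexes. Fat1 peaked at ZT12.6 with GFP and ZT21.2 with H3.3 (interaction adjusted p = 0.00338). Its GFP counts were 18.4, 25.5 and 37.6 at the lowest, median and highest at ZT12, and 10.8, 17.9, 9.81 and 8.14 at ZT0, with no overlap. Mob4 peaked at ZT12.8 and ZT22.0 (interaction adjusted p = 0.0195), with a GFP curve that was itself not called (adjusted p = 0.0830). Without ZT12 cohort 1 replicate 2 or cohort 2 replicate 1, 1 row was called. With limma, in cohort 1 only or with the thalamus marker level as a covariate 1 row was called as well, and with the gene-row share as a covariate 0 rows were (edgeR; 1142 at an unadjusted p under 0.05). The small number of calls does not show that the curves were alike in the other rows.

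RefSeq start-site windows of the same length were available for 7257 of the 12200 rows (59.5%). The E-box CACGTG stood in 15.7% of the 549 windows of rows with an unadjusted p under 0.01 and a dark peak, in 9.82% of the 326 with a light peak and in 11.5% of all. The D-box TTATGTAA, searched on both strands, stood in 1.28%, 0.307% and 0.579%, and the CRE TGACGTCA in 3.64%, 3.37% and 3.49%. These shares are descriptions and were not tested.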

How the data were processed

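Libraries of polyadenylated RNA were made by the authors with a stranded Illumina kit, aligned to GRCm38 with STAR 2.7.11b and counted per gene with htseq-count (HTSeq 2.0.5, stranded option yes). The deposited values are raw counts per gene name (54087 rows and 5 rows that are no genes, left out of all sums). Further files that matched no labelled sample numbered 18 and were not used. Libraries were grouped by the labels' virus and ZT. No pair of GFP libraries of the same time agreed within sampling noise (71 pairs, lowest chi-square per row 2.31).

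Counts were fitted in edgeR 4.0.16 (R 4.3.3; TMM, filterByExpr with minimum count 10 and minimum total 15, prior count 2, quasi-likelihood F test, Benjamini-Hochberg adjustment over all rows tested). The cosine fit had a period of 24 h, and its peak-to-trough log2 difference carries the SE of the fit. Normalised counts used median-of-ratios size factors over 9428 rows. JTK was reimplemented in Python 3.11.15 with 20 templates, and its p was multiplied by their number. DESeq2 1.42.0 and limma 3.58.1 were alternatives; the authors used DESeq2 1.44.0. Depth was compared by permutation with 100000 resamples. The fits were checked on simulated counts first. Positions come from GENCODE on GRCm38 and start-site windows from RefSeq GRCm38.p6.

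The libraries, rows and gene lists were chosen with earlier results of these data known, and the thalamus and posterior hypothalamus lists after these values were seen. Named rows were those of smallest p by each test with a mean normalised count of at least 20, the 3 of smallest p in each peak window, core clock rows at an unadjusted p under 0.05, Arntl, Per1, Per2, Cry1, Nr1d1, Dbp, Hdc, Tgm2 and Wdr5 in every case, up to 3 rows of each other list, and the interaction calls. Some rows that meet these rules or are counted in the lists are not reported by name here.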

Additional observations from a re-analysis of the deposited data

Results flagged for a closer look

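Single libraries far from the others at their time were looked for in 240 groups of 4 to 6 libraries, of which 32 were found; chance alone gives about 1 in 20 groups. Values are normalised counts unless named.

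The ZT20 library cohort 1 replicate 1 was the highest of its time for Prkcd (210.0), Slc18a2 (326), Slc17a7 (83.1), Sphk2 (1636), Thra (765) and the summed thalamus markers (1307). The ZT12 library cohort 1 replicate 3 was the highest for Sphk2 (2109.8), Thra (789.9), Per2 (17.3) and the summed striatum markers (545.9), and the lowest for the summed thalamus markers (87.5). In cohort 1 at ZT0, replicate 3 was high for Prkcd (46.2) and Sgk1 (9.81) and had the lowest total count (926778), replicate 2 was high for Gpt2 (31.1) and replicate 4 for Kcna6 (615). At ZT4, replicate 4 was high for Kcna6 (186) and replicate 5 for Slc17a7 (24.3), and replicate 2 had the lowest total count (1341591). At ZT8, cohort 1 replicate 5 was high for Fam107a (47.3) and Adcy1 (28.8) with the lowest total (1207237), and cohort 2 replicate 1 was high for Cry1 (8.43). At ZT12, cohort 1 replicate 4 was high for Hdc (34.5). At ZT16, cohort 1 replicate 1 was high for Kcna6 (375), Slc17a7 (19.2) and Adcy1 (30.3), and replicate 5 had the lowest total (1202114). At ZT20, cohort 1 replicate 4 was high for Per2 (13.5), Oxt (2.89) and the summed neuron markers (1771), and replicate 5 had the highest share of reads in its 10 most abundant rows (15.2%).

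The daily curves of Fat1 and Mob4 differed between GFP and H3.3 by the interaction test (edgeR adjusted p = 0.00338 and 0.0195), and neither was called with the gene-row share as a covariate.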

How the results depend on the processing

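Counts of calls depended on the processing. The cosine fit called 696 rows, against 1346 with no filter on low counts, 1201 with DESeq2, 274 with cohort as a covariate, 280 in cohort 1 only, 420 with the gene-row share and 456 with the thalamus marker level as a covariate, 1550 without both libraries that stood apart and 288 with all viruses in 1 fit. The ZT factor called 1455 rows, against 2415, 2268, 964, 170, 351, 1447, 3795 and 559 in that order, and 834 with limma. Size factors and robust dispersion kept both counts within 1.5 times. JTK called 1752 rows, against 49 after adjustment over rows and 1115 in cohort 1 only. The interaction called 2 rows, against 80 with no filter, 1 with limma, in cohort 1 or with the thalamus covariate, and 0 with the gene-row share as a covariate (edgeR; 1142 rows at an unadjusted p under 0.05 there, and 2 called by DESeq2 without that covariate). The share of rows at an unadjusted p under 0.01 with an H3.3 peak within 4 h was 54.7%, against 50.2% with no filter, 61.6% with limma, 61.3% with cohort, 63.3% in cohort 1, 67.6% with the gene-row share, 57.6% with the thalamus covariate, 47.7% without both libraries, 67.1% at a p under 0.001 and 28.6% within 2 h.

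Leaving out 1 library gave 261 to 1582 cosine calls, 476 to 3772 factor calls, 1381 to 2232 JTK calls, 1 to 2 interaction calls and a share of 47.5% to 68.7%. The adjusted permutation p of depth over ZT ran from 0.0021 to 0.197 for totals, 0.0109 to 0.413 for the gene-row share and 0.0553 to 0.385 for the 10 most abundant rows. Replicate numbers did not pair the libraries: same-numbered libraries of different times correlated from -0.31 to 0.28 (65 pairs, median 0.005). A fit with cohort and replicate number as a replicate block called 142 rows by the cosine, 335 by the factor and 2 by the interaction, and gave a share of 65.5%. The thalamus covariate, the fit without both libraries and leave-outs for depth were chosen after seeing the data, as was the count of calls per gene list under DESeq2, limma and without both libraries. The direction of 3 thalamus marker rows turned, none of them called by the cosine fit, though the ZT factor called Gbx2, opposite D130058E05Rik, and Tnnt1: Gbx2 with the gene-row share (log2 difference 0.29), Plekhg1 with the thalamus covariate (0.0493), and Tnnt1 with the thalamus covariate (0.18), without both libraries (0.22) and without the ZT20 library (0.22, lowest of its leave-outs, which reached 1.83). The cause of these changes was not tested. At a median of 1496408 reads in gene rows per library, rows such as Hdc, Per2 and Cry1 rest on a few reads each.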
